A study of Mus musculus with 6 samples.

Results

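The Kruppel-like factors are a family of zinc finger transcription factors, and 9 of them (Klf2, Klf3, Klf4, Klf5, Klf6, Klf7, Klf9, Klf10 and Klf13) were followed here through a table of 13595 genes. They were chosen by name as members known to respond to flow and stress, and all 9 were present in the table. The cells were primary CD31-positive cells, selected for an endothelial surface protein, isolated from liver of C57BL6/J mice aged 4 weeks. The 6 libraries of poly(A) RNA carry the labels male (3 libraries) and female (3), and are numbered 4, 5 and 6 within each sex. All 6 received 100 µM indoxyl sulfate, a tryptophan metabolite that activates the aryl hydrocarbon receptor, together with hypoxia and nutrient deprivation for 6 hours. The only contrast is therefore that of sex under this shared treatment, and the response to the treatment itself was not analysed here. The labels do not state whether the replicates are mice, isolations or wells, so p-values measure the spread between these libraries, which may be technical.

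Kruppel-like factors bind GC-rich and CACCC sequences through C2H2 zinc fingers at the carboxyl end of the protein, and differ in the rest of the protein, which recruits activators or repressors. In endothelium, KLF2 and KLF4 are induced by laminar flow through the MEKK3, MEK5 and ERK5 kinases and MEF2 factors. They switch on genes for nitric oxide synthesis and thrombomodulin and restrain adhesion molecules. KLF6 and KLF10 are early genes of injury and TGF-beta signalling, KLF9 is induced by glucocorticoid and thyroid hormones, and KLF3 is a repressor that works with CtBP proteins.

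Promoter sequences bear on these inputs, so the 250 bases upstream of the transcription start are shown for the flow-induced pair, Klf2 and Klf4, for Klf6, the highest per kilobase in the libraries labelled female, and for the hormone-induced Klf9. They are from RefSeq on GRCm38.p6, a build other than the mm39 named in the submitters' processing notes, and run 5′ to 3′ on the gene's strand. Klf2 is read from chr8:72318812-72319061 (plus strand), Klf4 from chr4:55532476-55532725 (minus), Klf6 from chr13:5861239-5861488 (plus) and Klf9 from chr19:23140976-23141225 (plus). Capitals mark, on either strand, a match to the MEF2 consensus, CACCC, and the cores ACGTG (bound by hypoxia-inducible factors) and GCGTG (bound by the aryl hydrocarbon receptor).
Klf2: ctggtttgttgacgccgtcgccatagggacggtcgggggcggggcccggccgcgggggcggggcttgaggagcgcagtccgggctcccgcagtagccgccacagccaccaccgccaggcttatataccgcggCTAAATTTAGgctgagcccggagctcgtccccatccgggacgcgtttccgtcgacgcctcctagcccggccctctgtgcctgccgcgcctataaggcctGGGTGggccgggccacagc
Klf4: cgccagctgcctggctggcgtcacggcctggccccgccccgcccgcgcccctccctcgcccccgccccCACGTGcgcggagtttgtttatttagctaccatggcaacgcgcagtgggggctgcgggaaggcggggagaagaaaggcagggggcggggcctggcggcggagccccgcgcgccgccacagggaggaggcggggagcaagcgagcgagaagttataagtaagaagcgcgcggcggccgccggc
Klf6: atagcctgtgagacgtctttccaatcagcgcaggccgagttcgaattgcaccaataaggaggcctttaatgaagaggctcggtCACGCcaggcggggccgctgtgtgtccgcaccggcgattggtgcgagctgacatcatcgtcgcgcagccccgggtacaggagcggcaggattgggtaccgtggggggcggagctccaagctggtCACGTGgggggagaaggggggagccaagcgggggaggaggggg
Klf9: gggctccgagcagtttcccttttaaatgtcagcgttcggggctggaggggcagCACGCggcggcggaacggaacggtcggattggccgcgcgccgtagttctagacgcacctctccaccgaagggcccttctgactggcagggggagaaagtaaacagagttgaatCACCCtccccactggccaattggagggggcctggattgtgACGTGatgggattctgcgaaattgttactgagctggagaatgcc
The Klf2 window held 1 MEF2 match, starting at position -118 from the start site, a motif found in 2.92% of 32851 promoters of the same length. It was the only MEF2 match among the 7 members with an entry in the promoter table (Klf2, Klf3, Klf4, Klf6, Klf7, Klf9 and Klf13). Windows of Klf4, Klf6 and Klf9 held ACGTG, which 16.6% of all promoters hold. In Klf4 and Klf6 it lies within CACGTG, which reads the same on both strands and counts as 2 matches. GCGTG was found in the windows of Klf3, Klf6, Klf9 and Klf13, and in 28.2% of all promoters. CACCC was found in those of Klf2, Klf3, Klf7, Klf9 and Klf13, against 52.0% of all. The members' windows had a GC content between 59.2% and 78.4%, above the median of 52.4% over all promoters. These matches describe letters in a window and not bound sites.

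The libraries held between 22303270 and 31189363 reads, which puts 3 reads at a normalized read count of 0.106 to 0.142. The sex labels were not fully borne out. Xist is the RNA that coats an inactive X chromosome. Its mean was 286 ± 46.7 under the label female and 0.323 ± 0.176 under the label male (SD, n = 3 each). However, 4 Y-linked genes were present in all 6 libraries. Ddx3y was at 48.5 to 57.7 in those labelled female and 47.2 to 76.3 in those labelled male, and Uty at 22.2 to 27.7 and 23.7 to 32.0. Neither passed the test by limma, although Ddx3y did after GC and length correction (log2 fold change -0.44, adjusted p 0.0168). Eif2s3y (mean 29.8 against 58.1 in those labelled male) and Kdm5d (19.1 against 34.8) were lower by limma (adjusted p 5.76e-06 and 0.000129). Each direction below rests on these labels. Markers of several cell types also differed. Lower and higher here are calls by limma (adjusted p under 0.05), which called 34.6% of all tested genes lower and 34.6% higher. Of 12 endothelial markers, 11 were lower in the libraries labelled female and 0 higher, and their summed level ran from 821 to 853 there against 2080 to 2169 in those labelled male. The summed level of 10 stellate, mural and smooth muscle markers ran the other way, from 2623 to 3342 against 262 to 385. Of the 9 tested, 6 were higher and 3 lower. Acta2 (mean 1694 against 78.6 in those labelled male) and Tagln (1057 against 52.1) made up most of the sum under the label female. The 3 lower were Pdgfrb (14.3 against 132.6), Rgs5 (2.89 against 16.9) and Cspg4 (4.30 against 9.81). Of 7 fibroblast markers, 6 were lower (summed level 948 to 957 against 2633 to 3360). Of 5 mesothelial markers, 4 were tested. Msln (19.4 against 332 in those labelled female), Wt1 (0.101 against 12.8) and Upk3b (listed at 0 against 1.37 to 4.65) were higher, and Krt19 (461 against 116) lower. The list summed to 457 to 469 under the label female and 424 to 518 under the label male, where Krt19 made up most of the sum. The 8 liver sinusoidal markers summed to 39.9 to 42.0 under the label female and 494 to 533 under the label male. Of the 3 tested, Lyve1 (498 against 4.98) and Stab1 were lower, and Gata4 (3.75 against 32.1) was higher and made up most of the sum in the libraries labelled female. Clec4g and Fcgr2b were at or near 0 in every library, as were the markers of hepatocytes (summed level at most 1.22), and the 6 lymphocyte markers were not analysed here. Macrophage markers summed to 11.97 to 14.4 under the label female and 7.30 to 9.49 under the label male. Both tested, Csf1r (3.47 against 5.59) and Cd68 (5.25 against 7.68), were higher, while Emr1 was listed at 0. Fewer cells of a type and less RNA per cell cannot be told apart in these bulk libraries, and the part of these markers in the results below was not tested. Male replicate 4 stood apart from male 5 and male 6 for several members, and their values without it are given as well.

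Of the 9 Kruppel-like factors, 7 were lower in the libraries labelled female (Klf2, Klf4, Klf5, Klf7, Klf9, Klf10 and Klf13), Klf3 was higher, and Klf6 did not pass the test (limma, Benjamini-Hochberg adjusted p under 0.05 over 12568 genes). The background is high in this contrast: 34.6% of all tested genes were called lower and 34.6% higher, 69.3% in all. edgeR on the recovered reads also called 7 members lower and 1 higher, and 68.0% of its tested genes. The median log2 fold change of the 9 was -0.84, beside 0.01 over all tested genes. The groups did not overlap for 7 of the 9, where they did not overlap for 74.1% of tested genes. Each fold change refers to log2(value + 1), and levels are normalized read counts. All 9 passed the filter on low values.

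**Figure D1:**
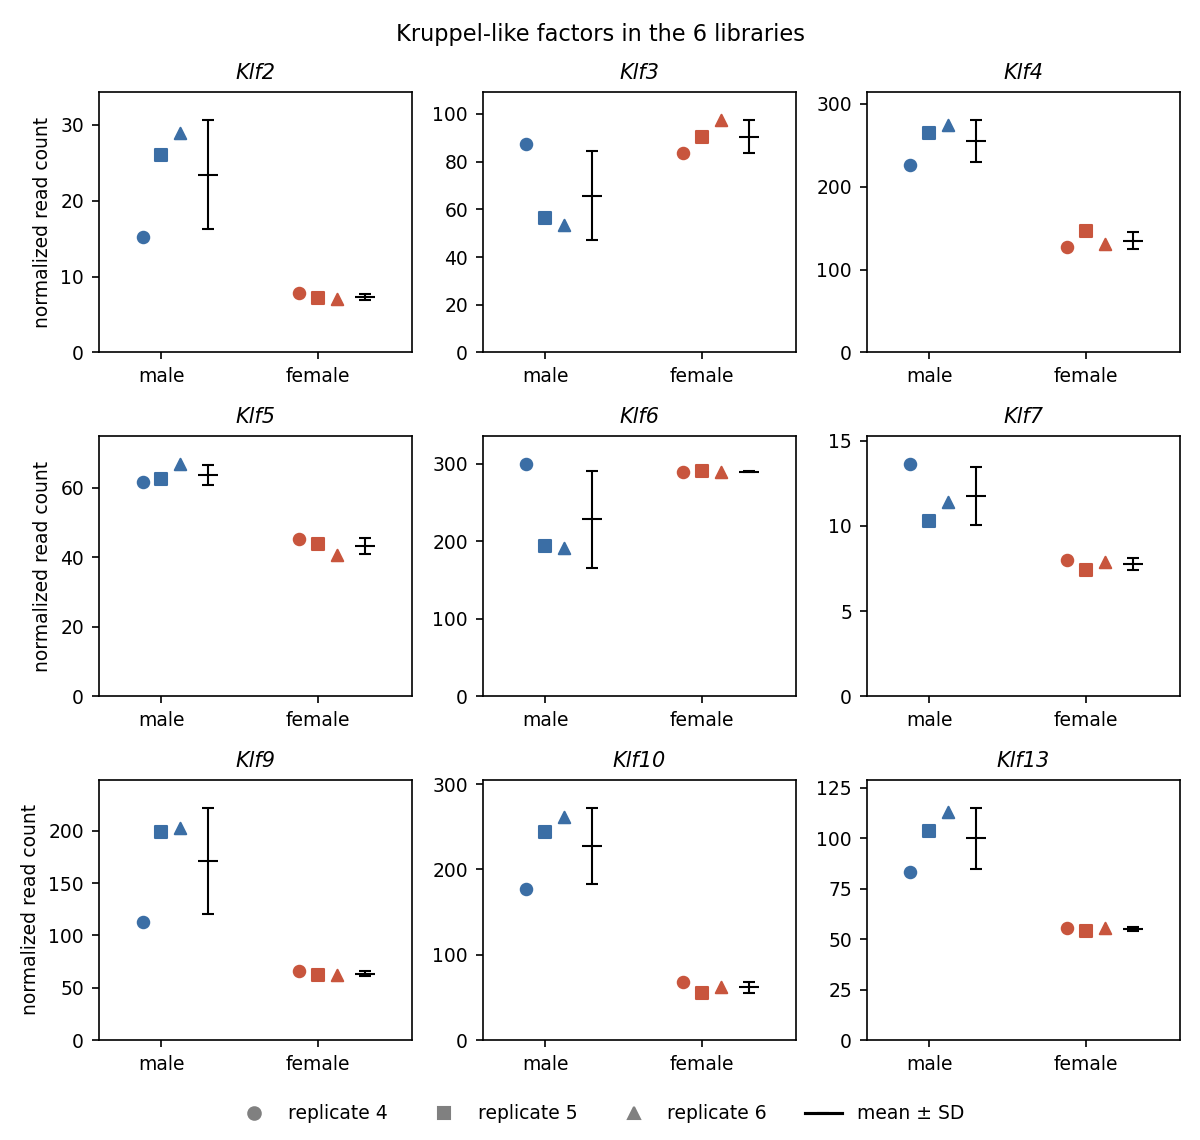
Normalized read count of each Kruppel-like factor (vertical axis, from 0) in the 3 libraries labelled male (blue) and the 3 labelled female (red), with the replicate number as the symbol and the mean ± SD in black. The groups overlap for Klf3 and Klf6, where male replicate 4 stands at the level of the libraries labelled female (87.3 and 299.8 against means of 90.4 and 289).

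Klf2, the main transcription factor induced by laminar flow, was read at 15.3, 26.1 and 29.0 in male 4, 5 and 6 and at 7.80, 7.16 and 7.08 in female 4, 5 and 6. All 3 libraries labelled female were below the lowest labelled male, and male 4 was the lowest of its group. The log2 fold change was -1.50 with an SE of 0.21 (adjusted p 0.000268 by limma), and the mean in the libraries labelled female was 31.4% of that in those labelled male. Klf4, the flow-induced partner of Klf2 and a pluripotency factor in other cells, was read at 227, 265 and 275 against 128, 147 and 131. The groups were again apart, at a log2 fold change of -0.91 with an SE of 0.09 (adjusted p 3.37e-05 by limma), and the level in those labelled female was 52.9% of that in those labelled male. Klf2 was represented by 149 to 820 reads per library and Klf4 by 2755 to 7781.

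Whether the pair fell by the same factor was read from their ratio. The log2 ratio of Klf2 to Klf4 within a library was taken after adding 1 to both values. Library scaling therefore cancels only in part, and the 1 added weighs more on Klf2, the lower gene. Its values were -3.81, -3.29 and -3.20 in the libraries labelled male and -3.87, -4.18 and -4.03 in those labelled female. The ratio was lower in each library labelled female, by 0.59 on the log2 scale, with male 4 the closest to them. The exact two-sided permutation test gave p = 0.1, the smallest value that 3 libraries against 3 allow.

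Klf10, an early gene of TGF-beta signalling, had the largest change of the 9. It was read at 177, 244 and 262 in male 4, 5 and 6 and at 67.6, 55.4 and 62.3 in female 4, 5 and 6, a log2 fold change of -1.85 with an SE of 0.14 (adjusted p 9.02e-06 by limma). Even male 4, the lowest of its group, was 2.86 times the mean of the libraries labelled female. Klf9, the hormone-induced member, was read at 113, 198 and 203 against 66.1, 61.8 and 62.1. Its log2 fold change was -1.37 with an SE of 0.20 (adjusted p 0.000355 by limma), and the groups were apart, with male 4 well below male 5 and male 6. Klf13, a close relative of Klf9 that recruits the SIN3A corepressor, was read at 83.2, 104 and 113 against 55.5, 53.9 and 55.7, a log2 fold change of -0.84 with an SE of 0.11 (adjusted p 0.000158 by limma).

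Klf5 and Klf7 differed less. Klf5, known for its role in proliferating epithelium and smooth muscle, was read at 61.7, 62.5 and 67.0 in the libraries labelled male and 45.2, 43.9 and 40.6 in those labelled female. The log2 fold change was -0.55 with an SE of 0.07 (adjusted p 0.000166 by limma), and it was the member for which male 4 stood closest to the other libraries of its group, at 0.953 of the mean of male 5 and male 6. Klf7, a broadly expressed member, was read at 13.6, 10.3 and 11.4 against 8.01, 7.38 and 7.88, a log2 fold change of -0.54 with an SE of 0.12 (adjusted p 0.00343 by limma). Of the exon bases of Klf7, 39.4% are overlapped on the other strand by Gm13748 and Gm26649 in GENCODE M21. The sources used here do not give the strand setting of the counting, so reads from these antisense genes cannot be told apart from those of Klf7.

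Klf3 and Klf6 did not share the direction of the rest. Klf3, the CtBP-recruiting repressor, was read at 87.3, 56.3 and 53.6 in male 4, 5 and 6 and at 83.5, 90.1 and 97.4 in female 4, 5 and 6. Male 4 lay inside the range of the libraries labelled female, while male 5 and male 6 lay below it. Klf3 was the only member for which male 4 was inside that range, as it was for 9.96% of tested genes. The log2 fold change was 0.49 with an SE of 0.17 (adjusted p 0.0303 by limma). Without male 4 it was 0.70 (adjusted p 8.92e-06), and the call was lost when any of the other 5 libraries was left out (adjusted p 0.0901 without male 5, 0.0976 without male 6, and 0.0526, 0.0755 and 0.1003 without female 4, 5 and 6). Klf6, an injury-responsive factor of liver endothelial and stellate cells, was read at 299.8, 193 and 191 against 289, 290.0 and 289. Male 4 was above all 3 libraries labelled female and the other males were far below them. With all 6 libraries the log2 fold change of 0.38 did not pass the test with an SE of 0.16 (adjusted p 0.0601 by limma), and without male 4 it was 0.59 and passed (adjusted p 7.10e-07).

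**Figure D2:**
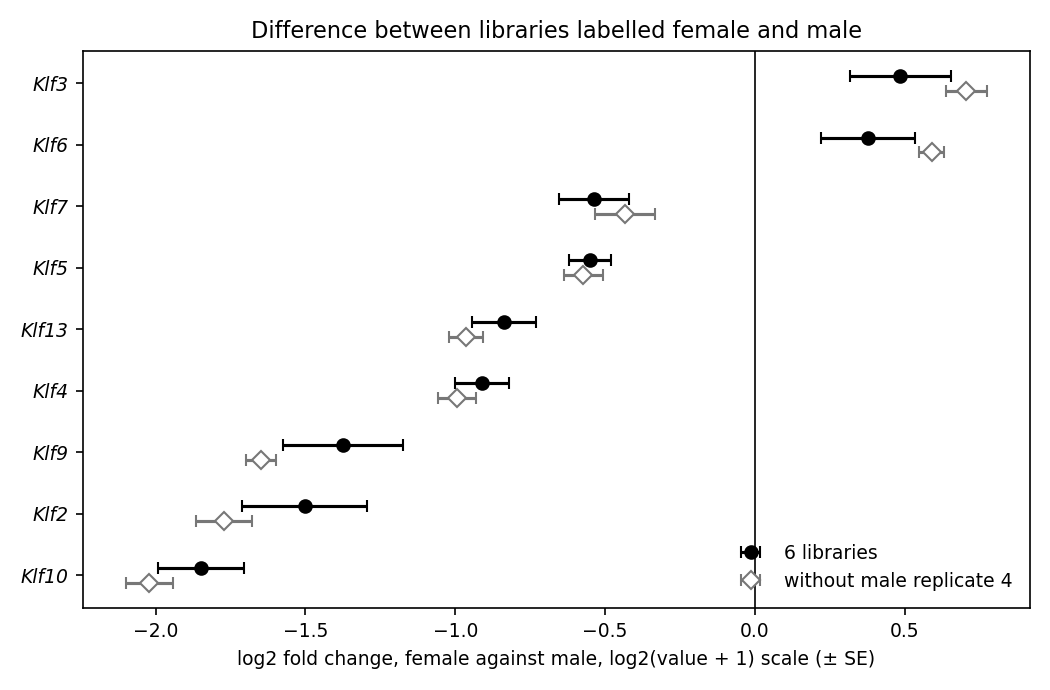
Log2 fold change, female against male, of each Kruppel-like factor on the log2(value + 1) scale, with its SE, from all 6 libraries (filled circles) and without male replicate 4 (open diamonds). 7 members lie below 0 in both fits, and Klf3 and Klf6 lie above 0 in both, at 0.49 and 0.38 with all libraries and 0.70 and 0.59 without male 4.

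Of the 6 libraries, male 4 moved the log2 fold change most when left out, for all members but Klf5. For 8 of the 9 members, all but Klf7, male 4 lay on the side of the libraries labelled female relative to both male 5 and male 6, as it did for 47.0% of all tested genes. It lay on the opposite side for Klf7 and for 33.8% of tested genes. Relative to the mean of male 5 and male 6, male 4 was at 0.555 for Klf2, 0.562 for Klf9 and 0.698 for Klf10, and at 1.59 for Klf3 and 1.56 for Klf6. Leaving it out gave log2 fold changes of -1.77 for Klf2, -1.65 for Klf9, -2.02 for Klf10 and -0.96 for Klf13. Among the cell markers, the mural list summed to 385 in male 4 against 273 and 262 in male 5 and male 6. Its smooth muscle genes Acta2 (134 against 56.4 and 45.9), Tagln and Cnn1 were higher in male 4 than in both, whereas Rgs5 (10.9 against 18.5 and 21.2), Des, Myocd and Pdgfrb were lower than in both. The fibroblast list summed to 3360 in male 4 against 2633 and 2678, farther from the libraries labelled female than those of male 5 and male 6. The mesothelial list summed to 424 against 518 and 499, most of it Krt19 (407 against 498 and 478). Pecam1, which encodes CD31, was at 405 against 391 and 423. Without male 4, 7 members were called lower and 2 higher, where 37.7% and 37.8% of tested genes were called lower and higher.

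Levels of different genes were compared per kilobase of transcript, using the longest coding transcript in GENCODE M21. In the libraries labelled male, Klf4 stood highest at 84.3 ± 8.40 normalized reads per kb (SD, n = 3), followed by Klf10 at 74.8 ± 14.8 and Klf6 at 54.0 ± 14.7. The ranges of these neighbours overlapped, as did those of Klf6 and Klf9 (38.2 ± 11.3). In the libraries labelled female the order differed at the top: Klf6 led at 68.5 ± 0.115, above Klf4 at 44.6 ± 3.42 and Klf10 at 20.3 ± 2.01, with no overlap between Klf6 and Klf4 or between Klf4 and Klf10. Klf3 was at 12.6 ± 3.58 in the libraries labelled male, where its range overlapped that of Klf2 and that of Klf2 overlapped Klf13, and at 17.3 ± 1.33 in those labelled female, where it overlapped Klf10. Klf2 was low per kb in both groups, at 12.7 ± 3.91 and 3.98 ± 0.215, and Klf7 was the lowest, at 1.54 ± 0.223 and 1.01 ± 0.0433. As a share of the summed level per kb of the 9 members, Klf6 took 13.6% to 24.7% in the libraries labelled male and 35.6% to 35.96% in those labelled female, whereas Klf10 took 20.2% to 25.9% and 9.44% to 11.6%. The summed level per kb was 287 to 332 and 190.3 to 192.8 in the same order. Klf4 took 26.0% to 27.4% and 22.1% to 25.2%.

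**Figure D3:**
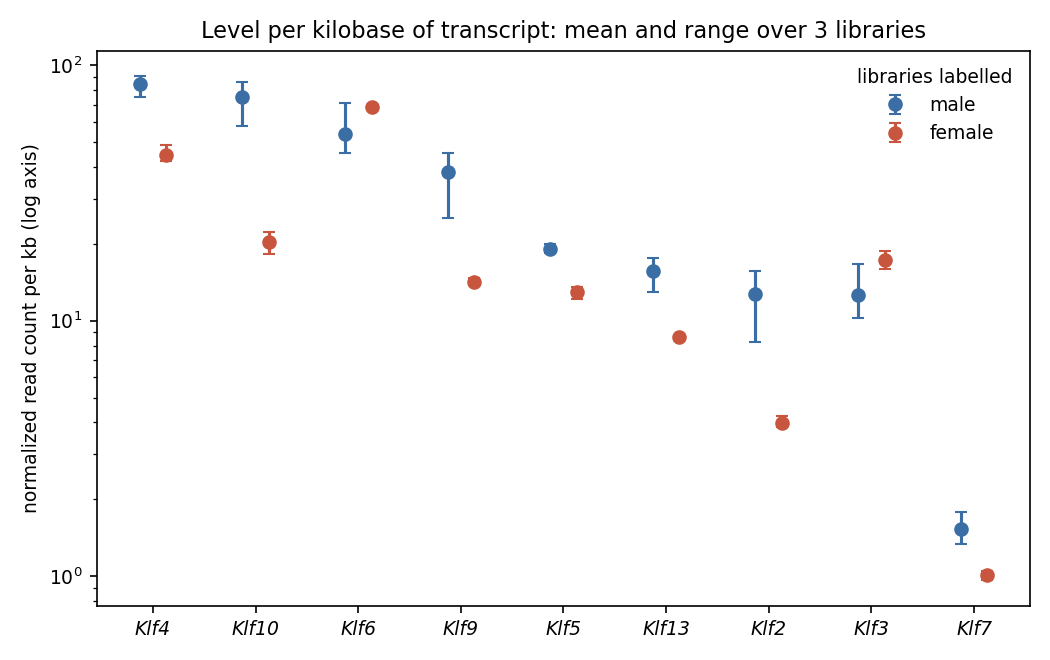
Normalized read count per kb of transcript (log axis) of the 9 Kruppel-like factors, as the mean and range over the 3 libraries labelled male (blue) and the 3 labelled female (red), ordered by the level in those labelled male. Klf4 leads in the libraries labelled male (84.3) and Klf6 in those labelled female (68.5), and Klf7 is lowest in both.

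Of the other Kruppel-like factors, 5 were in the table and 4 were tested. Of those tested, 3 were lower and 1 higher, beside 34.6% of all tested genes called in each direction. Klf11, a relative of Klf10 in TGF-beta signalling, was lower in the libraries labelled female (28.3, 36.9 and 38.5 in male 4, 5 and 6 against 23.1, 21.5 and 23.3, log2 fold change -0.58, limma adjusted p 0.00233). Klf15, known for hormone-driven metabolic control, was read at 1.70, 3.70 and 3.60 against 1.04, 0.486 and 0.332 (log2 fold change -1.29, limma adjusted p 0.00167). Klf16 went the other way, from 5.56, 6.22 and 6.57 to 16.6, 17.8 and 13.6, the largest increase in the family among genes tested (log2 fold change 1.25, limma adjusted p 3.38e-05). Klf12 was called lower at a log2 fold change of -0.33 (limma adjusted p 0.0348), and this call was lost when any 1 of the 6 libraries was left out (adjusted p 0.0515 to 0.106, 0.0788 without male 4), under quantile normalization (0.102), by DESeq2 (0.0849) and by limma voom (0.0519). Klf8 was below the filter, at 0.498 to 0.706 against 0.5699 to 1.45, and Klf1, Klf14 and Klf17 were not analysed here.

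The SP factors share the zinc fingers of the family and bind the same GC boxes. Sp1, the ubiquitous member, did not pass the test, with a range of 143 to 181 in the libraries labelled male and 149 to 165 in those labelled female (limma adjusted p 0.991). Sp3, its close relative, was lower, at 204, 193 and 176 against 110, 115 and 128 (log2 fold change -0.69, limma adjusted p 8.61e-05). Sp9, a factor best known from limb and forebrain, was read at 0.249, 0.305 and 0.212 against 6.02, 5.97 and 7.12 (log2 fold change 2.55, limma adjusted p 4.58e-07). Sp6 was also called higher, from at most 0.459 to at least 1.09. Adding 1 to the values understates the change of such low genes: edgeR gave log2 fold changes of -2.26 for Klf15, 4.61 for Sp9 and 1.72 for Sp6. Sp2 and Sp4 did not pass, although Sp2 did after GC and length correction (adjusted p 0.00641) and Sp4 under quantile normalization (0.0321), and Sp5, Sp7 and Sp8 were not analysed here.

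The genes upstream of Klf2 and Klf4 comprised 17 sensors, kinases, MEF2 factors and cerebral cavernous malformation (CCM) genes. Of these, 7 were called higher and 7 lower, near the background of 34.6% of tested genes in each direction, and the median log2 fold change was -0.21. The 3 MEF2 transcription factors were on the lower side. Mef2c fell from 131, 99.9 and 98.9 in male 4, 5 and 6 to 8.47, 9.77 and 10.7 in female 4, 5 and 6 (log2 fold change -3.37, limma adjusted p 1.98e-07), and Mef2d had a log2 fold change of -0.82. Hdac5, which represses MEF2 until it leaves the nucleus, was at -1.56. Plxnd1, a plexin reported to sense flow, was also lower (log2 fold change -3.42). On the higher side were Piezo1, a flow-gated ion channel (422, 328 and 343 against 603, 569 and 533, log2 fold change 0.65), Mapk7, which encodes ERK5, with a log2 fold change of 0.39 (0.68 after GC and length correction), and the CCM genes Krit1 (0.91) and Ccm2 (0.85), whose proteins hold back MEKK3. Among the other kinases, Map3k2, which encodes MEKK2, was lower, at 134, 120.0 and 123 against 89.7, 87.7 and 88.8 (log2 fold change -0.50, limma adjusted p 0.000146). Map3k3 (-0.21, MEKK3) and Map2k5 (-0.10, MEK5), given as log2 fold changes, did not pass by limma, and Map3k3 passed by edgeR (adjusted p 0.0495), which called 8 of the list lower.

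Of 16 tested genes known to be induced by KLF2 or KLF4 in endothelium, 12 were on the lower side under the label female and 2 on the higher, beside 34.6% of all tested genes in each direction, with a median log2 fold change of -1.73. The largest decreases were those of Gja4, the gap junction protein connexin 37, of the water channel Aqp1, of Nos3, the endothelial nitric oxide synthase, and of Pi16. Gja4 was read at 259.8, 325 and 356 against 6.31, 4.38 and 5.18 (log2 fold change -5.64, limma adjusted p 3.05e-08). Nos3 was read at 8.05, 11.6 and 10.3 against 0.332, 0.177 and 0.142 (log2 fold change -3.16, limma adjusted p 5.37e-07, and -5.48 by edgeR). Thbd, thrombomodulin, was on the other side at 377, 364 and 396 against 569, 532 and 499.8 (log2 fold change 0.49, limma adjusted p 0.000271), as was Ass1, an enzyme of arginine supply (1.51). Endothelial markers, of which 11 of 12 were lower, moved with these genes (Tek is in both lists), and their part in this count was not tested.

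Among 12 tested genes known to be repressed by KLF2 or KLF4, 7 were called lower, 3 higher and 2 did not pass, beside the 34.6% of all tested genes called in each direction, with a median log2 fold change of -0.79. Those higher in the libraries labelled female were Il6, a cytokine (3.23, 4.96 and 4.63 against 31.4, 30.7 and 31.3, log2 fold change 2.62), F3, tissue factor (2.18), and Edn1, endothelin (1.63, and 2.58 by edgeR). Those lower included Ace, the angiotensin-converting enzyme (-4.37), Adm, adrenomedullin (-2.08), Cxcl1, a neutrophil chemokine (-1.84), and Sele, E-selectin (-1.67), all as log2 fold changes. Sele was at 41.5 in male 4 against 17.96 and 16.5 in male 5 and male 6, and 5.08 to 7.97 in the libraries labelled female.

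Genes around Klf9 and Klf10, both inputs and other targets of the same signals, were read in the same way. Of 9 tested steroid and thyroid hormone receptors and glucocorticoid-induced genes, 7 had lower and 2 had higher levels (median log2 fold change -0.88), beside the background of 34.6% each way. Fkbp5, Per1 and Zbtb16, all induced by glucocorticoids, had log2 fold changes of -1.44, -1.73 and -2.03, and the thyroid hormone receptor Thra had -2.41. Per1 was read at 121, 200.3 and 203 in male 4, 5 and 6 and at 49.9, 51.4 and 50.1 in female 4, 5 and 6, with male 4 low in its group as for Klf9. Sgk1, a kinase also induced by glucocorticoids, was higher (2.26), as was the receptor Thrb (0.74). Of 11 TGF-beta ligands, receptors and SMADs, 5 were lower and 3 higher, a share near the 69.3% of all tested genes called in either direction. Tgfb1, a ligand, was at 202, 237 and 237 against 82.3, 75.6 and 66.1 (log2 fold change -1.58, limma adjusted p 2.36e-06), and Smad7, an early target of the pathway as Klf10 is, had a log2 fold change of -1.36. The receptors Acvrl1 and Tgfbr2 were at -1.82 and -1.11, while Smad2 (0.51), Tgfb2 (0.41) and Eng (0.40, and 0.66 after GC and length correction) were higher.

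Of 16 tested cofactors and ubiquitin ligases of KLF proteins, 8 had lower and 5 had higher levels (median log2 fold change -0.19), beside 69.3% of all tested genes called in either direction. Ctbp1 and Ctbp2, which bind KLF3, were both higher (log2 fold changes 0.41 and 0.48), as were Hdac2 (0.50) and Fbxw7, a ligase that marks KLF2 and KLF5 for degradation (0.94). Vhl, the ligase subunit best known for hypoxia-inducible factors, was lower, at 181, 165 and 189.8 against 27.5, 29.8 and 27.5 (log2 fold change -2.62, limma adjusted p 4.83e-08). Hdac1 (-0.65), Wwp1 (-0.45) and Smurf1 (-0.34) were also lower. The call of Smurf1 was lost without female 4, 5 or 6 (adjusted p 0.0592, 0.0740 and 0.0724), under quantile normalization (log2 fold change -0.23, adjusted p 0.0510) and after GC and length correction (-0.14, adjusted p 0.269), and its value was -0.20 without male 4. GC and length correction gave 0.64 for Ctbp1 and -0.70 for Wwp1. The cofactor list's count of 8 lower became 4 without female 4 and 3 without female 5.

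**Figure D4:**
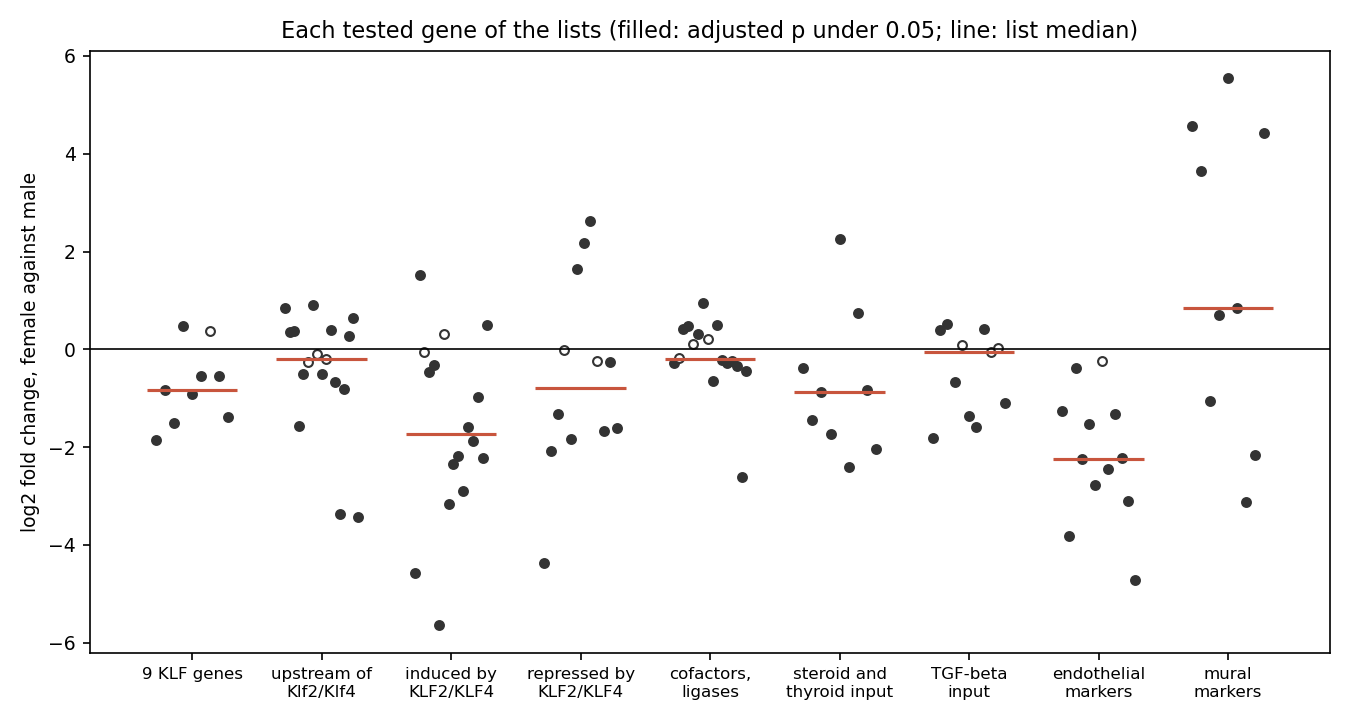
Log2 fold change, female against male, of each tested gene in the 9 Kruppel-like factors, in the lists of genes around them, and in the endothelial and mural markers (filled points passed the test, open points did not, and the line is the list's median). The medians are -0.84 for the 9 factors, -1.73 for genes induced by KLF2 or KLF4, -0.79 for genes repressed by them and -2.23 for endothelial markers.

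In the authors' deposited table, 5 of the 9 had a false discovery rate under 0.05, where 25.8% of all its genes did. These were Klf2 (fold change -3.19), Klf4 (-1.89), Klf9 (-2.71), Klf10 (-3.68) and Klf13 (-1.82). In the authors' deposited table Klf4 stood near the threshold with a false discovery rate of 0.0476. The values for Klf5 (0.451), Klf7 (0.167), Klf3 (0.283) and Klf6 (0.464) in the authors' deposited table were above it, with fold changes of -1.47, -1.52, 1.38 and 1.27. All 9 had the same direction there as in the limma fit, but both rest on the same 6 libraries and are not independent.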

How the data were processed

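Trizol and Direct-Zol were used for extraction and Kapa HyperPrep for libraries of poly(A)-enriched RNA, per the labels' protocols. Bowtie2, RSEM, edgeR and the build mm39 are named in the submitters' processing notes, without their roles. The deposited values are signal values, whole read counts that the authors divided by 1 factor per library: 100% of values were whole multiples, within 0.001 reads, of the smallest value above 0 in their column. They are called normalized read counts here. Per the file headers, the table also holds the authors' signed fold change (a score) and 2 columns of p-values, raw and as a false discovery rate. The rule behind the filter to detectable genes is not given in the sources used here.

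limma 3.58.1 (trend) in R 4.3.3 was fitted to log2(value + 1) of 12568 genes that reached 1 in 3 or more libraries, with sex as the only term. Adjusted p-values are Benjamini-Hochberg over all of them, with a threshold of 0.05. The count test on the recovered reads, edgeR 4.0.16, called 8975 of 13199 genes (68.0%), and limma 8704 (69.3%). DESeq2 1.42.0, voom and other scalings and filters were alternatives.

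The 9 members and all lists were chosen with earlier results of these data known. All members were named, and from each list up to 4 called genes with the largest change in each direction. Other genes were named after their values were seen (Map3k2, Map3k3, Map2k5 and cell markers). Plpp3, Ccn3 and Adgre1 were matched by older symbols. Ptgds was not analysed here. Of 13595 symbols, 95.3% were found in GENCODE M21, which gave lengths and GC content, and 7 of the 9 members were found in the RefSeq promoter table. Members shared at most 0.268% of their 50-base words with other genes.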

Additional observations from a re-analysis of the deposited data

How the results depend on the processing

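Klf2, Klf4, Klf5, Klf7, Klf9, Klf10 and Klf13 kept their direction and call in each of the 16 alternatives that changed the scaling, filter, pseudocount, test or libraries. Klf3 kept its call in 11 of its 16 and Klf6 its lack of one in 13 of its 16. With a further requirement of a log2 fold change of 1 or more in size, 2589 genes were called (1070 higher, 1519 lower), 3 members were lower and 0 higher. By that construction Klf4 (-0.91), Klf5 (-0.55), Klf7 (-0.54), Klf13 (-0.84) and Klf3 (0.49) were no longer called. Klf6 passed under quantile normalization (0.50), which put 2 members on the higher side. The cause was not tested. With each library left out in turn, Klf3 ran from 0.36 to 0.70, Klf6 from 0.26 to 0.59, the members called higher from 0 to 2, and the genes called from 7731 to 9496, the most when male 4 was dropped. No pairing by number was seen: deviations of same-numbered libraries had correlations across genes of -0.09, -0.03 and -0.17, and 0 of 6 libraries correlated best with their own number. With the replicate block 8314 genes were called, Klf6 passed (0.38, adjusted p 0.0433), giving 2 members higher, and Klf12 was no longer called (adjusted p 0.0597). The ratio of Klf2 to Klf4 kept its direction in the 7 alternatives run. Sp1, not called, changed sign under quantile normalization (0.0895) and without male 4, female 4 or female 5 (-0.063 to 0.11 over the libraries left out), and Ddx3y without male 5 (-0.21 to 0.13). Of 963 values of other named genes, 916 kept direction and call. Klf2 and Klf7 had the fewest reads of the 9, under 1000 in each library.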

Other observations

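The genes whose values over the 6 libraries were most like those of Klf2, among 12567 compared by Pearson's r of log2(value + 1), were Fam167b (r = 0.999), the phosphodiesterase Gpcpd1 (0.999) and Atf3, a stress-induced transcription factor (0.999). Atf3 was read at 10.6, 20.8 and 22.7 in male 4, 5 and 6 and at 5.10, 4.38 and 4.08 in female 4, 5 and 6, with male 4 again the lowest of its group. Gpcpd1 was read at 29.8, 54.8 and 56.8 against 14.6, 14.1 and 13.4. The genes most like Klf4 were Dennd2d, the kinase Cdk5 and Adm2, a peptide of the adrenomedullin family, of which Cdk5 was read at 20.0, 21.8 and 22.6 against 12.7, 14.3 and 13.2. The libraries fall into 2 groups that differ in most genes, so such values are common: 1368 genes had r above 0.95 with Klf2 and 2076 with Klf4.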
